A study of Mus musculus with 66 samples.

Results

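The PERK-ATF4-CHOP branch genes were followed by mRNA-Seq in growing and differentiated mouse C2C12 myoblasts. The genes were taken by name from the deposited FPKM table: Atf4, Ddit3, Trib3, Chac1, Ppp1r15a, Atf3, Asns, Sesn2, Ddit4 and Atf5, which are 10 of its 22489 genes. FPKM is a read level scaled to the exon length of the gene and the size of the library, so levels can be set side by side between genes. All 10 genes reached a mean of 1 FPKM over the 20 libraries and were among the 10954 genes tested, with single values from 3.82 FPKM (Atf3 in growing H3mm12 cells) to 945 FPKM (Ddit3 in differentiated H3mm7 cells).

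C2C12 is an established mouse myoblast line that fuses into myotubes when serum is lowered. The study compared C2C12 cells without a transgene (WT) with 9 Tet-On C2C12 lines, each carrying 1 histone H3 protein with GFP at its N-terminus behind a doxycycline-inducible promoter. The proteins were H3.1, H3.2 and H3t (H3.1/H3.2-type, 3 lines) and H3.3 with its mouse relatives H3mm7, H3mm11, H3mm12, H3mm13 and H3mm16 (H3.3-type, 6 lines). The H3t columns carry the name H3mmT in the table and were taken as H3t. Growing cells were kept in medium with 20% fetal bovine serum and harvested before confluence, and differentiated cells were moved at confluence to 2% horse serum and harvested 48 h later. The transgene is driven by a Tet-responsive vector in transfected cells, the endogenous H3 genes remain in every line, and whether doxycycline was present at harvest is not given in the sources used here. There was 1 library per line and state, so a single line had no replicate. The libraries served as the units of each test, and those of the same line were not paired in the main fits. The p-values measure the spread between these libraries.

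The libraries were checked before the genes were described. Myotube markers were high in every differentiated library, with summed levels of 4643 FPKM (H3.1) to 22200 FPKM (H3mm12) against 6.71 to 200.4 FPKM in growth, and proliferation markers summed to 642 to 1004 FPKM in growth and 7.51 to 136 FPKM after differentiation. The defining markers of leukocytes (Ptprc, Cd3e, Itgam), epithelium (Epcam, Cdh1), endothelium (Pecam1, Kdr) and adipocytes (Adipoq, Plin1) stayed under 1 FPKM in all 20 libraries, while a further marker on each of these lists was low but detected, with highest values of 3.90 FPKM for Cd68, 2.86 for Krt8, 7.53 for Cdh5 and 4.96 FPKM for Fabp4. Both WT libraries stood apart, with Gapdh at 0.361 and 0.263 FPKM against 783 to 2094 FPKM in the GFP-H3 lines, so the counts over lines were repeated without WT. Read numbers are unknown, and no counting interval was possible. In these bulk samples, a different share of cells and a different amount of RNA per cell cannot be told apart.

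PERK, encoded by Eif2ak3, is a kinase in the membrane of the endoplasmic reticulum (ER) that phosphorylates the translation factor eIF2 when unfolded protein accumulates. General translation then falls while the transcription factor ATF4 is made, and ATF4 with its partners switches on CHOP (Ddit3), amino acid metabolism and feedback genes. Sister kinases act on eIF2 during amino acid shortage, viral infection or heme shortage and feed the same ATF4 program, known as the integrated stress response. The ATF6 and IRE1-XBP1 branches of the unfolded protein response run beside it and mainly raise ER chaperones such as Hspa5 (BiP). In muscle cells, ATF4 and CHOP are known from work on myoblast differentiation and on starvation. The table holds transcript levels, and neither eIF2 phosphorylation nor ATF4 protein was measured.

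ATF4 and its C/EBP partners bind a composite element, the C/EBP-ATF response element, searched here as TGATGNAAN and its reverse complement NTTNCATCA on both strands. The windows were RefSeq promoters (GRCm38.p6), from 250 bases before to 50 bases after each gene start, and each member window was located once in mm9. The element was present in 4 of the 11 windows of the members (36.4%), against 3.95% of all 32851 windows and 2.18% of the 10454 windows of genes with a mean of at least 1 FPKM. Windows of other ATF4 or CHOP targets held it in 7 of 32 cases (21.9%), those of ATF6 and IRE1-XBP1 branch genes in 1 of 22 (4.55%), those of eIF2 kinases and regulators in 1 of 17 (5.88%), and those of other stress genes in 0 of 29. Requiring TGATG to be followed by AAA, CAA or GAA left 3 of the 11 windows (27.3%), since the Trib3 match was lost, against 2.88% of all windows. The 4 matches are shown because they hold the letters of the searched element, and their part in the levels was not tested. Each run has 30 bases on the gene's strand with the match in capitals, and distances count from the start base as 0.
Atf3: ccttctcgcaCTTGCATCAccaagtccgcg
Chac1: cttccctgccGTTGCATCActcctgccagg
Trib3: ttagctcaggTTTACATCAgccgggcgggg
Asns: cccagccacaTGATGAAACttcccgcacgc
In mm9 these runs lie at chr1:193007304-193007333 (Atf3, minus strand), chr2:119176774-119176803 (Chac1, plus strand), chr2:152169764-152169793 (Trib3, minus strand) and chr6:7643213-7643242 (Asns, minus strand). From the RefSeq starts, the matches of Atf3, Chac1 and Asns were upstream, at -111 to -103, -194 to -186 and -23 to -15, and that of Trib3 was downstream, at 13 to 21. The gene spans given below come from GENCODE, whose starts differ (7643254 for Asns and 152169768 for Trib3). From those starts the Asns match lies downstream and the Trib3 match upstream. The other 6 members did not hold these letters in this window. A match is a description of the sequence, and binding was not measured here.

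With differentiation, 8 of the 10 genes rose, namely Atf4, Ddit3, Trib3, Chac1, Ppp1r15a, Atf3, Sesn2 and Atf5, and none was called lower. A gene was called when limma on log2(FPKM + 1) gave a Benjamini-Hochberg adjusted p below 0.05 over all 10954 genes together with a log2 difference of 1 or more. Of all genes tested, 8.87% were called higher and 8.41% lower. The median difference was 1.82 over the 10 genes and 0.038 over all genes. Without WT, 8 of 10 were again called higher. Fold changes of the lower genes are understated by the added 1 FPKM.

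**Figure D1:**
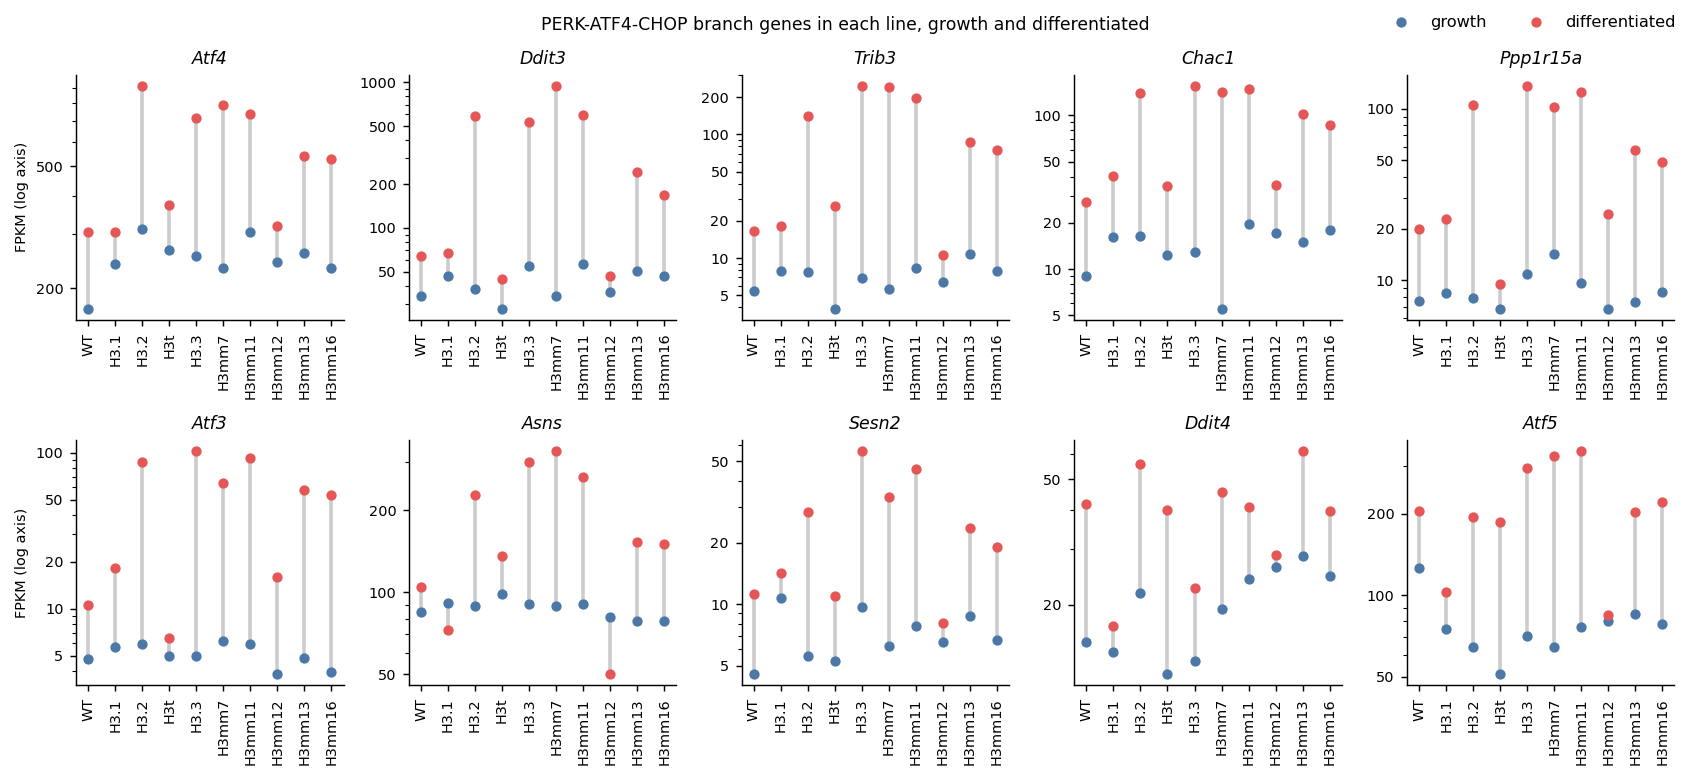
FPKM (log axis, with its own range in each panel) of the 10 genes in each line, with growth in blue, differentiated in red and a grey bar joining the 2 libraries of a line. In 8 panels the 4 highest red points belong to H3.2, H3.3, H3mm7 and H3mm11, and the blue points have no such order.

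Atf4, the basic leucine zipper factor at the head of the branch (chr15:80085614-80087970, mm9, plus strand), was the most abundant member in growth. Its level in growing cells ran from 172 FPKM in WT over a median of 249 FPKM to 312 FPKM in H3.2, and in differentiated cells from 306 FPKM in WT over 534 FPKM to 914 FPKM in H3.2. The 2 ranges overlapped slightly, and each line was higher when differentiated, by 1.27-fold in H3.1 to 3.40-fold in H3mm7. The fitted log2 difference was 1.04 ± 0.20 (SE, 10 and 10 libraries, limma adjusted p = 1.68e-04). It lay close to the size required for a call and was 0.98 without H3.2, 0.98 without H3.3 and 0.95 without H3mm7.

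Ddit3 encodes CHOP, a C/EBP family factor that is itself induced by ATF4 (chr10:126727830-126733344, plus strand). Growing cells had 27.9 FPKM (H3t) to 56.7 FPKM (H3mm11), with a median of 42.4 FPKM. Differentiated cells had 44.7 FPKM in H3t, 46.5 in H3mm12, 63.8 in WT, 67.6 in H3.1, 169 in H3mm16, 242 in H3mm13, 535 in H3.3, 582 in H3.2, 596 in H3mm11 and 945 FPKM in H3mm7. The ratio to growth was thus under 2 in 4 lines and reached 27.7 in H3mm7, where Ddit3 exceeded Atf4 (791 FPKM). The log2 difference over the lines was 2.18 ± 0.51 (SE, adjusted p = 9.97e-04).

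Atf3, a further ATF family factor induced early in the response (chr1:192994175-193007219, minus strand), was the lowest member in growth by its median, 5.00 FPKM, with a range of 3.82 to 6.25 FPKM. In differentiated cells it ran from 6.54 FPKM (H3t) over 55.9 FPKM to 103 FPKM (H3.3). No differentiated library was at or below a growing one, and the log2 difference was 2.62 ± 0.41 (SE, adjusted p = 1.47e-05). Atf5, whose translation is also raised when eIF2 is phosphorylated (chr7:52067627-52072028, minus strand), went from 51.2 to 126 FPKM in growth, with WT the highest, to 84.6 to 341 FPKM after differentiation. H3mm12 had nearly the same Atf5 level in both states, 80.6 and 84.6 FPKM, while H3mm11 reached 341 FPKM. Its log2 difference was 1.38 ± 0.22 (SE, adjusted p = 1.54e-05).

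Trib3 encodes a pseudokinase that binds ATF4 and dampens it (chr2:152163158-152169768, minus strand), and it had the widest change of the 10 genes. Growing cells held 3.90 FPKM (H3t) to 10.9 FPKM (H3mm13). Differentiated cells held 10.6 FPKM in H3mm12, 16.6 in WT, 18.2 in H3.1, 26.3 in H3t, 75.3 in H3mm16, 86.0 in H3mm13, 142 in H3.2, 197 in H3mm11, 243 in H3mm7 and 247 FPKM in H3.3. The ratio to growth was 1.64 in H3mm12 and 43.0 in H3mm7, and the log2 difference was 3.03 ± 0.51 (SE, adjusted p = 3.56e-05).

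Ppp1r15a encodes GADD34, the subunit that brings protein phosphatase 1 to eIF2 and so ends the response (chr7:52778286-52781638, minus strand). It rose from 6.83 to 14.3 FPKM in growth to 9.57 FPKM (H3t) to 137 FPKM (H3.3) after differentiation, with a log2 difference of 2.34 ± 0.39 (SE, adjusted p = 2.98e-05). The H3t line had 6.83 FPKM in growth and 9.57 FPKM when differentiated, the smallest ratio of the 10 lines, 1.40. Its constitutive counterpart Ppp1r15b had a median of 27.5 FPKM in growth and 24.2 FPKM in differentiated cells, with a log2 difference of -0.21 ± 0.13 (SE, adjusted p = 0.181).

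Chac1 encodes an enzyme that degrades glutathione (chr2:119176965-119180117, plus strand). It ran from 5.53 FPKM (H3mm7) to 19.7 FPKM (H3mm11) in growth and from 27.4 FPKM (WT) to 156 FPKM (H3.3) after differentiation, without overlap, and its log2 difference was 2.39 ± 0.33 (SE, adjusted p = 2.75e-06). Sesn2, a leucine-sensing inhibitor of mTORC1 (chr4:132047947-132066416, minus strand), ran from 4.54 to 10.7 FPKM in growth and from 8.08 FPKM (H3mm12) to 56.3 FPKM (H3.3) after differentiation. The Sesn2 log2 difference was 1.47 ± 0.28 (SE, adjusted p = 1.41e-04).

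The genes that did not reach the required size were Asns and Ddit4. Asns, asparagine synthetase (chr6:7625169-7643254, minus strand), was the most even member in growth, 78.7 to 98.8 FPKM, and ran from 50.2 FPKM (H3mm12) to 330 FPKM (H3mm7) after differentiation. It was lower when differentiated in H3mm12 (81.3 and 50.2 FPKM) and in H3.1 (91.6 and 72.4 FPKM) and higher in the other 8 lines, with a log2 difference of 0.81 ± 0.27 (SE, adjusted p = 0.0125). Ddit4 encodes REDD1, an mTORC1 inhibitor also induced by glucocorticoids and low oxygen (chr10:59412423-59414518, minus strand). It ran from 12.1 to 28.5 FPKM in growth and from 17.2 FPKM (H3.1) to 61.5 FPKM (H3mm13) after differentiation. Ddit4 was higher in 10 of 10 differentiated lines, with a log2 difference of 0.91 ± 0.21 (SE, adjusted p = 7.62e-04), which was 1.00 and a call without H3mm12.

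**Figure D2:**
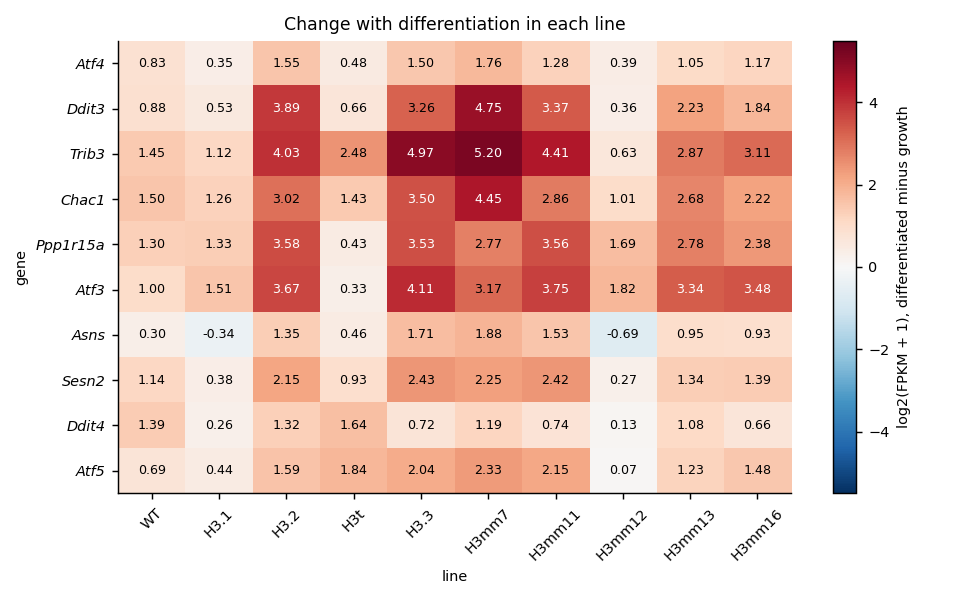
Difference in log2(FPKM + 1) between the differentiated and the growing library of each line (columns) for the 10 genes (rows), with the value printed in each cell. Trib3 in H3mm7 had the largest value, 5.20, and Asns in H3mm12 and H3.1 had the negative values, -0.69 and -0.34.

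The size of the change differed widely between the lines. These are differences between 1 differentiated and 1 growing library, given without a test. In H3.2 and H3mm7, 10 of 10 genes were higher by at least 1 on the log2 scale, where 11.9% and 8.83% of all genes tested passed the same size. In H3.3 and H3mm11, 9 of 10 were (10.8% and 9.54% of all genes), and Ddit4 was the gene below it. The median change of the 10 genes was 2.85 in H3.3, 2.64 in H3mm11, 2.59 in H3.2 and 2.55 in H3mm7. H3mm13 had 9 of 10 (10.9% of all genes) with a median of 1.78, and H3mm16 had 8 of 10 (11.5%) with a median of 1.66.

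Fewer members passed that size in the other lines. WT had 6 of 10 (10.4% of all genes) with a median of 1.07, in which Chac1 and Trib3 were the highest at 1.50 and 1.45. H3.1 had 4 of 10 (9.49%) with a median of 0.48, H3t had 4 of 10 (11.1%) with a median of 0.80, and H3mm12 had 3 of 10 (11.3%) with a median of 0.37. The 4 genes past 1 in H3.1 were Trib3, Chac1, Ppp1r15a and Atf3, and the 3 in H3mm12 were Chac1, Ppp1r15a and Atf3. In H3t they were Trib3, Chac1, Ddit4 and Atf5, while Atf3 and Ppp1r15a, at 0.33 and 0.43, were its smallest. The medians over all genes tested lay between -0.012 and 0.062 in these 10 comparisons.

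The order of the lines was shared by most members once the cells had differentiated. For 8 of the 10 genes the 4 highest differentiated libraries were H3.2, H3.3, H3mm7 and H3mm11, the next were H3mm13 and then H3mm16, and the 4 lowest were WT, H3.1, H3t and H3mm12. Atf5 and Ddit4 had other orders. Differentiated Ddit4 stood at 41.7 FPKM in WT and 39.9 FPKM in H3t but at 22.7 FPKM in H3.3, and Atf5 was slightly higher in WT (204 FPKM) than in H3.2 (195 FPKM). In growth, none of the 10 genes had those 4 lines on top. The line groups were read from these same differentiated values, so the counts are a description and not a test. The share of all genes with this order was not counted. Leaving WT out of the orders left the count at 8 of 10. WT was in the lowest group, so this count could not have fallen and is no check of the order. With 1 library per line, neighbours in these orders could not be tested against each other.

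The lines also spread apart. The SD of log2(FPKM + 1) over the 10 lines was larger in differentiated than in growing cells for 10 of 10 members, as it was for 77.1% of all genes tested (10 of 10 and 79.1% without WT). For Asns it was 0.10 in growth and 0.89 after differentiation, a ratio of 8.48, for Atf3 0.20 and 1.38, and for Ddit3 0.33 and 1.70. Ddit4 had the smallest ratio, 1.29, near the median over all genes, 1.34. Pearson's r between members over the 10 differentiated libraries, taken as a description of 45 pairs, had a median of 0.895 and a range of 0.119 to 0.977. Over the 10 growing libraries the median was 0.208, with a range of -0.761 to 0.817. Without WT the medians were 0.891 and 0.149. The pairs share their libraries, so they are not independent of each other. Pairs of other genes were not computed as a background, so the high r in differentiated cells is not shown to be particular to the members.

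The lines with the lowest members lay at both ends of the myotube markers, and H3mm11, a line with high members, also lay at the low end. Differentiated H3.1 and H3t had summed myotube markers of 4643 and 4888 FPKM, and differentiated WT and H3mm12 had 18550 and 22200 FPKM. The lines with the highest members, H3.2, H3.3, H3mm7 and H3mm11, had 11830, 6778, 6577 and 4884 FPKM. H3mm13 and H3mm16, which came between in most orders, had 16290 and 16570 FPKM. Proliferation markers in the differentiated libraries summed to 136 FPKM in H3.1, 74.4 in WT, 63.4 in H3t and 32.0 in H3mm12. In H3.2, H3.3, H3mm7 and H3mm11 they summed to 27.1, 15.2, 46.5 and 7.51 FPKM, and in H3mm13 and H3mm16 to 8.66 and 15.4 FPKM. The part of these markers in the members' levels was not tested.

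Genes upstream of ATF4 stayed below the size required for a call. Of 18 eIF2 kinases and eIF2 regulators, 0 were called by limma, with or without WT, against 8.87% of all genes called higher and 8.41% called lower, and the median difference was -0.23. An unadjusted p below 0.05 was reached by 12 of the 18, of which 5 were higher and 7 lower in differentiated cells, and by 62.2% of all genes. Eif2ak3, which encodes PERK, had a median of 6.77 FPKM in growth and 8.63 FPKM after differentiation, with its highest value, 13.8 FPKM, in differentiated H3.3. Its log2 difference was 0.29 ± 0.13 (SE, adjusted p = 0.0656). Eif2ak4, which encodes the amino acid sensor GCN2, had a difference of -0.40 ± 0.12 (SE, adjusted p = 0.00852), and Eif2s1, the eIF2 subunit that is phosphorylated, had -0.55 ± 0.14 (SE, adjusted p = 0.00228), both below the size required.

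Among 30 other targets of ATF4 or CHOP that could be tested (Vldlr and Fam129a were under 1 FPKM), 12 rose (13 without WT) and 0 were called lower, with a median difference of 0.93. The 12 were 40.0% of the list, against 8.87% of all genes called higher and 8.41% called lower. Fgf21, a secreted metabolic hormone, was at most 0.560 FPKM in every growing library and 11.9 FPKM (H3.1) to 118 FPKM (H3.2) after differentiation, with a log2 difference of 5.15 ± 0.36 (SE, adjusted p = 1.24e-10). Car6, a secreted carbonic anhydrase, was 154 to 219 FPKM in differentiated H3.3, H3mm7 and H3mm11, at most 10.5 FPKM in the other 7 lines, and 4.01 FPKM in H3.2, a line with high Ddit3. Its log2 difference was 3.44 ± 0.85 (SE, adjusted p = 0.00165). The C/EBP partners of ATF4 were not called: Cebpg had a difference of 0.78 ± 0.19 (SE, adjusted p = 0.00108) and Cebpb of 0.56 ± 0.38 (SE, adjusted p = 0.219). Cebpb in differentiated cells was 22.5 FPKM in WT, 25.5 in H3t and 37.4 in H3.1, and 61.5 to 170 FPKM in the other 7 lines.

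The parallel ER branches were followed in the same libraries. Of 25 tested ATF6 and IRE1-XBP1 branch genes, 7 rose and 0 were called lower, with a median difference of 0.64 (7 and 0 without WT). For all genes tested, 8.87% were called higher and 8.41% lower. Dnajb9, an ER co-chaperone, and Herpud1, a part of ER-associated degradation, had the largest differences, 2.54 ± 0.35 and 2.49 ± 0.36 (SE, adjusted p = 2.70e-06 and 4.21e-06). Hspa5 rose by 1.38 ± 0.48 (SE, adjusted p = 0.0170), and Xbp1 had 0.91 ± 0.23 (SE, adjusted p = 0.00192), below the size required. Hspa5 was higher in 7 of the 10 lines. It was lower when differentiated in H3t (324 and 263 FPKM), H3mm12 (245 and 205 FPKM) and H3mm16.

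By line, 13 of these 25 genes in H3.2, 20 in H3.3, 21 in H3mm7 and a further 20 in H3mm11 were higher by at least 1 on the log2 scale, and Hspa5 reached 1687, 3688, 2780 and 2330 FPKM there. In H3mm13 and H3mm16, 6 and 4 of 25 were, with list medians of 0.34 and 0.0016. Of all genes tested, 11.9% (H3.2), 10.8% (H3.3), 8.83% (H3mm7), 9.54% (H3mm11), 10.9% (H3mm13) and 11.5% (H3mm16) passed the same size. Hspa5 in H3mm16 was 255 FPKM in growth and 247 FPKM when differentiated, while Ddit3 in the same libraries was 46.5 and 169 FPKM, Trib3 7.85 and 75.3 FPKM and Atf3 3.92 and 53.9 FPKM. The leading genes of the ATF6 and IRE1-XBP1 list did not follow Hspa5 there, with Dnajb9 at 4.85 and 21.6 FPKM and Herpud1 at 25.6 and 102 FPKM. In H3mm13, Hspa5 was 240 and 576 FPKM and Ddit3 50.9 and 242 FPKM. The list medians in WT, H3.1, H3t and H3mm12 were 0.22, -0.043, -0.048 and -0.11. Whether the branches differ between lines was not tested, since a line had 1 library per state.

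**Figure D3:**
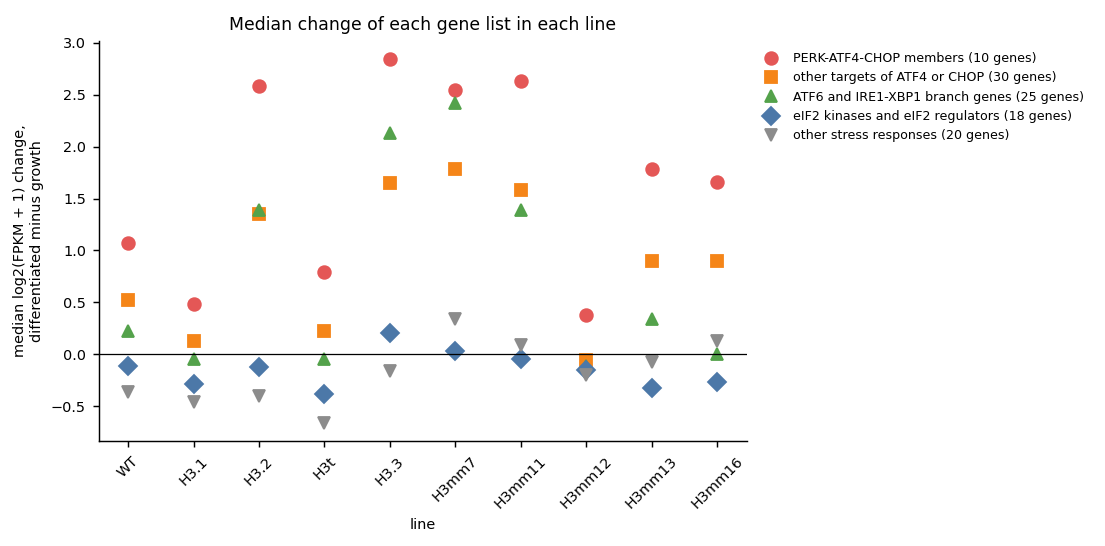
Median difference in log2(FPKM + 1), differentiated minus growth, of 5 gene lists in each line. The 10 branch genes (circles) had the highest median in all 10 lines, and in H3mm13 and H3mm16 the ATF6 and IRE1-XBP1 list (triangles) lay at 0.34 and 0.0016 while the circles lay at 1.78 and 1.66.

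Other stress responses, listed as a further comparison (20 genes tested), had 3 genes called higher and 5 called lower, with and without WT, and a median of -0.31. Over all genes tested, the shares were 8.87% called higher and 8.41% called lower. Cdkn1a, the p21 cell cycle inhibitor, rose by 3.32 ± 0.21, and Tsc22d3, a glucocorticoid target, by 1.87 ± 0.21 (SE, adjusted p = 1.92e-11 and 1.64e-07). Nqo1 and Gclm, oxidative stress genes, fell, with differences of -3.06 ± 0.29 and -2.05 ± 0.11 (SE, adjusted p = 1.18e-08 and 2.87e-12).

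The next comparison asked whether the members differed by the type of H3 that the line carried. Growing and differentiated GFP-H3 libraries were fitted together, with a common spread per gene for both states. None of the 10 genes was called between the 6 H3.3-type and the 3 H3.1/H3.2-type lines in growth, where 0.21% of all genes were called, and none had an unadjusted p below 0.05, against 9.39% of all genes. The differences in growth, H3.3-type minus H3.1/H3.2-type, lay between -0.15 (Atf3) and 0.48 (Ddit4), with a median of 0.18. For Asns the SE in growth was 0.44, while its SD over growing lines was 0.098 (H3.3-type) and 0.078 (H3.1/H3.2-type). The common spread was wider than that of growing cells, so the lack of small p-values for the members in growth is not evidence of equal levels. In differentiated cells 0 of 10 were called by limma (0.749% of all genes were), and 2 had an unadjusted p below 0.05, as did 20.1% of all genes. Those were Atf3, with 1.29 ± 0.57 (SE, unadjusted p = 0.0357, adjusted p = 0.211), and Ppp1r15a, with 1.26 ± 0.56 (SE, unadjusted p = 0.0379, adjusted p = 0.216). The common spread includes the tighter growing libraries, so these SE and p-values understate the spread of differentiated cells. Differentiated Atf3 had an SD of 0.93 over the H3.3-type lines and 1.79 over the H3.1/H3.2-type lines.

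Single lines moved these values. Among the H3.1/H3.2-type lines, differentiated Atf3 was 18.1 FPKM in H3.1, 6.54 in H3t and 87.2 in H3.2, and among the H3.3-type lines it was 16.02 in H3mm12 and 53.9 to 103 FPKM in the other 5. Without H3.2 both genes were called, Atf3 with 2.25 ± 0.50 (SE, adjusted p = 0.0159) and Ppp1r15a with 2.17 ± 0.51 (SE, adjusted p = 0.0204), and the genes called among all tested went from 82 to 295. Without H3t the differences were 0.47 for Atf3 and 0.51 for Ppp1r15a, and without H3.1 the genes called among all tested fell to 3. Ddit3 and Trib3 had differences of 1.24 ± 0.77 and 1.22 ± 0.76 (SE, adjusted p = 0.387 and 0.384), with H3.2 (582 and 142 FPKM) high in one type and H3mm12 (46.5 and 10.6 FPKM) low in the other.

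The change with differentiation was also set between the types as an interaction. It was called for 0 of the 10 genes and 0.0% of all genes by limma, and 0 members and 9.15% of all genes had an unadjusted p below 0.05. With line as a block, 0 members and 55 of all genes were called. The interaction values ran from -0.32 ± 0.47 (Ddit4) to 1.44 ± 0.80 (Atf3, SE, adjusted p = 0.624), and that of Atf3 was 0.69 without H3t and 2.36 without H3.2. With 3 lines in one type and a single line able to move a value this far, a difference in the members between H3 types was not detectable here.

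**Figure D4:**
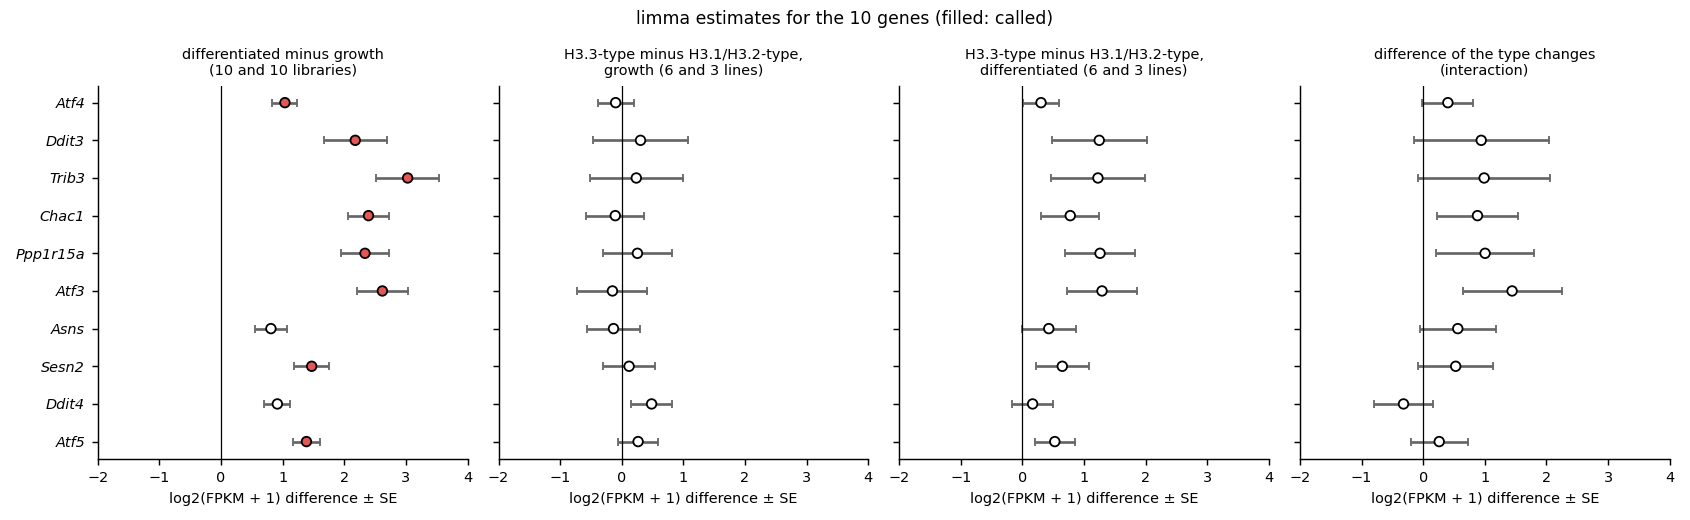
limma differences in log2(FPKM + 1) with SE for the 10 genes in 4 comparisons, with filled points for called genes. The 8 filled points are all in the comparison of differentiated with growing cells, and the open points of the H3 type comparisons have SE of 0.29 to 1.10.

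Genes with the most similar pattern to single members were named as a description, by Pearson's r of log2(FPKM + 1) over the 10 differentiated libraries and without a p. For Atf4 they were Phf10 (r = 0.998), Rnd1 (0.967) and Slc6a9 (0.966), and Phf10 ran from 51.9 to 181 FPKM with its highest value in H3.2, as Atf4 did. For Ddit3 they were Myc (0.970), Phf10 (0.968) and Rnd1 (0.965), and Myc ran from 8.53 to 105 FPKM with its highest value in H3mm7, as Ddit3 did. For Chac1 they were Lmo4 (0.971), Phf10 (0.969) and Nat9 (0.967). Ddit4 had weaker neighbours, Tbcel (0.860), Katna1 (0.852) and Tasp1 (0.817). The points share their libraries. The 10 members were left out of the ranking, and these r values were the highest among the other genes tested.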

How the data were processed

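mRNA-Seq of 20 libraries (10 lines, growth and differentiated) was used. The deposited values are FPKM: the authors mapped reads to mm9 with TopHat 2.0.8 (the text names this for the GFP-H3 lines) and estimated levels with cuffdiff of Cufflinks 2.0.1. The 3′-seq tables were not used here. Read depth is unknown. FPKM were transformed as log2(FPKM + 1), genes with a mean of at least 1 FPKM were kept, and limma 3.58.1 (R 4.3.3, trend and robust) was fitted across all genes with Benjamini-Hochberg adjustment. Errors are SE. The method was tested on simulated data, with changes planted on genes with an SD at or below the median and the same SD in both states. That test does not cover genes like the members, whose SD was larger and differed between states. Genes and lists were chosen with earlier results of these data known. Besides the 10 genes, the text names up to 2 called genes with the largest rise and fall per list, 8 pathway anchors, and the 3 genes most like Atf4, Ddit3, Chac1 and Ddit4. Libraries of the same line pair, since they are the same cell line, and their deviations from the state means correlated in each line (r = 0.273 to 0.877 over 10954 genes).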

Additional observations from a re-analysis of the deposited data

Results flagged for a closer look

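Atf4 in growing WT cells, 171.7 FPKM, was the lowest of the 10 growing libraries. On log2(FPKM + 1) it lay further from the next library, H3mm7 with 232.6 FPKM, than Dixon's 95% critical value allows (gap over range 0.507 against 0.466), and on FPKM itself it did not (0.433). The test was run on 20 groups of libraries, 10 genes in 2 states, and chance flags about 1 in 20 such groups. The WT libraries also stood apart in Gapdh, and the part of the library in this value was not tested.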

How the results depend on the processing

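Pseudocounts of 0.1 and 0.01 FPKM, no filter, a mean of at least 5 FPKM, quantile normalization, limma without trend and robust settings, a replicate block by line and leaving out each line were tried. The count of members called higher with differentiation was 8 with the block and 7 to 9 over the left-out lines. Atf4 was the gene lost with quantile normalization (0.89) and without H3.2, H3.3 or H3mm7, because its value fell below 1. Without H3.1 the difference between H3 types in differentiated cells changed sign for Atf4 (-0.010, and up to 0.78 over the left-out lines) and Ddit4 (-0.305, and up to 0.52). The replicate block changed no call of a member. Members called between types in differentiated cells were 0 to 2 over the left-out lines. Genes called between types in growth (23) were 46 at a pseudocount of 0.1 FPKM, 70 at 0.01 FPKM, 6 without a filter, 14 at a mean of at least 5 FPKM, and 2 to 25 over the left-out lines. In differentiated cells (82) they were 134 at 0.1 FPKM, 19 without a filter, 49 at a mean of at least 5 FPKM, and 3 to 295 over the left-out lines. For the interaction (0) they were 1 at a mean of at least 5 FPKM, 5 with quantile normalization, 55 with the replicate block, and 0 to 2 over the left-out lines. The cause was not tested. Line order, spread and correlations without WT were added after seeing the data. FPKM without read numbers sets no limit from depth, and 1 library per line sets the precision.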
